A study of Mus musculus with 12 samples.

Results

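The MHC class I loading and immunoproteasome genes H2-K1, H2-D1, H2-T23, B2m, Tap1, Tap2, Tapbp, Psmb8, Psmb9 and Psmb10 were followed in lines of mouse ISEMFs (intestinal subepithelial myofibroblasts), contractile cells of the stroma that were grown from the colon. Their probes were selected by gene symbol in the platform annotation of an Illumina mouse bead array, which gave 22 of 45281 probes. A probe was kept when its detection p-value (its signal set against negative control beads) was under 0.05 on at least 3 of the 12 arrays. That left 20 of the 22 probes, of 21124 kept in all, for the 10 genes, of 11060 genes with a kept probe. The 2 probes left out, 1 of the 4 for H2-D1 and 1 of the 3 for B2m, were detected on 0 arrays. Here "probe 1" is the brightest kept probe of a gene.

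The study set 3 ISEMF lines null for the microRNAs miR-143 and miR-145 (KO4, KO10 and KO15) beside 3 wild-type lines (WT5, WT7 and WT13). Each line gave 1 array from cells exposed to lipopolysaccharide (LPS, 1 ug/mL for 24 h), a bacterial outer membrane component sensed through the receptor TLR4, and 1 from untreated cells, so that the 4 groups held 3 arrays each. All lines grew in serum-containing medium with insulin, transferrin and EGF. Whether each line stems from its own animal is not in the labels, and the p-values therefore speak of the spread among these lines, which may be partly technical. Probes for the deleted microRNAs were not analysed here.

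Class I molecules show peptides from inside the cell to CD8 T cells. The proteasome cuts proteins into peptides, and its immunoproteasome form carries the catalytic subunits Psmb8, Psmb9 and Psmb10 in place of Psmb5, Psmb6 and Psmb7. Tap1 and Tap2 form the transporter that carries peptides into the endoplasmic reticulum, where tapasin (Tapbp) holds it beside an empty heavy chain paired with beta-2-microglobulin (B2m). Nearly all nucleated cells make class I molecules, whereas the immunoproteasome subunits are made constitutively mainly by blood-derived cells and are induced elsewhere. Interferons are known to raise the genes of both groups.

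Untreated and LPS arrays sat on different slides, so treatment and slide cannot be told apart, and each genotype held the same positions on both slides, so genotype and slide position cannot be told apart either. Between 42.5% and 44.7% of probes were detected per array. The WT13 LPS array stood somewhat apart, with a median unnormalised intensity of 136.1 against 115.5 to 127.9 on the other 11 arrays and a mean correlation of 0.986 with its group, the lowest of the 12. All 15 myofibroblast and smooth muscle markers were kept, led by Acta2, smooth muscle actin. Its mean log2 intensity was 15.25 in KO and 15.23 in WT lines with LPS, and 15.25 in KO and 15.24 in WT lines untreated. Quantile normalisation gives the brightest probes nearly equal values on every array, so no steadiness is read from Acta2. Some markers differed with LPS in the limma fit described below (adjusted p under 0.05). In KO lines 4 of the 15 were lower and 0 higher, where 1272 of all 21124 kept probes were lower. In WT lines 5 were lower and 1 higher, where 2269 of all were lower. Myh11 changed by -1.50 in KO and -1.28 in WT lines, and Tagln by -0.83 and -0.61. Of 16 macrophage and leukocyte markers 10 were kept, and 7 of these were detected on all 12 arrays, among them Lyz2, Fcer1g and Laptm5. The mean log2 intensity of Lyz2 was 9.34 in KO and 9.97 in WT lines with LPS. Untreated it was 10.20 in KO and 10.67 in WT lines. The probes of Ptprc, Itgam, Fcgr1 and Cx3cr1 were not kept.

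Of the 10 genes, 8 lie on chromosome 17 in assembly GRCm38.p6, B2m on chromosome 2 and Psmb10 on chromosome 8. Psmb9, Tap1, Psmb8 and Tap2 follow one another there with no other protein-coding gene between them. RefSeq promoter sequences of that assembly (300-base windows, of which 250 bases lie before the start site) were available for 9 of the 10 genes, as 10 windows, since H2-K1 has 2. The 250 bases before the start site are printed below for 6 of these 9 genes. Those of Tapbp, Psmb9 and Psmb10 are not printed. Capitals mark letters that match an interferon element, a GAS, the NF-kB consensus, the CRE-like letters TGACG or the Y box ATTGG on either strand.
H2-K1 (chr17:34000334-34000583, minus strand): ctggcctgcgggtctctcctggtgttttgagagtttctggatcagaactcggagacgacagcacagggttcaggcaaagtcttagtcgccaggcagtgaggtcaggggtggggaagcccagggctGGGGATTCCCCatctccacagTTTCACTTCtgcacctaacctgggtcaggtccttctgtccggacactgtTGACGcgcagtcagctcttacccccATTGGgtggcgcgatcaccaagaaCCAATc
H2-D1 (chr17:35262844-35263093, plus strand): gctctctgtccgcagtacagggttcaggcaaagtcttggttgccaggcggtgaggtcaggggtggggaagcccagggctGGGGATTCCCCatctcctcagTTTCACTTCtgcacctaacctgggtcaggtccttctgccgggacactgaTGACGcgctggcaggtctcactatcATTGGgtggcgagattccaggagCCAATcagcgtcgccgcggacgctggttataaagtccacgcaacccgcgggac
H2-T23 (chr17:36032702-36032951, minus strand): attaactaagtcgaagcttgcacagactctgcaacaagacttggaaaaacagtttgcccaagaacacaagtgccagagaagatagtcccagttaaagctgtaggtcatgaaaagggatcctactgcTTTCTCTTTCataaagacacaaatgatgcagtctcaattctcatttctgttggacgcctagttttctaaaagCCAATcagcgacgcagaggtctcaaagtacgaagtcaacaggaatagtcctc
B2m (chr2:122147437-122147686, plus strand): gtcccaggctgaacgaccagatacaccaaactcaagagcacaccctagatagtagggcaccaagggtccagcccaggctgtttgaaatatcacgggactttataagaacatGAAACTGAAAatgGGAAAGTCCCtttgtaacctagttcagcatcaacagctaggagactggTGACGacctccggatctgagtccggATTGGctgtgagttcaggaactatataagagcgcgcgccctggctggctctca
Tap1 (chr17:34187306-34187555, plus strand): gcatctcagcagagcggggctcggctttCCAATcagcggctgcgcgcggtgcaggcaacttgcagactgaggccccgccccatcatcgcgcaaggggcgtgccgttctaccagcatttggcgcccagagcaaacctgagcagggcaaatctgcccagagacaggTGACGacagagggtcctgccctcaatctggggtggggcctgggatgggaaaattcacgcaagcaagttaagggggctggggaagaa
Psmb8 (chr17:34197945-34198194, plus strand): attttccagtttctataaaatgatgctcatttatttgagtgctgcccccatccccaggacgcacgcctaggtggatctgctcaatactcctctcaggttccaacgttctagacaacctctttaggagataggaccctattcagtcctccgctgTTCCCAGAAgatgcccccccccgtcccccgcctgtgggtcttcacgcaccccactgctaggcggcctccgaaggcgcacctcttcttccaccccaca

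The classical heavy chain genes H2-K1 and H2-D1 shared an identical run of 47 bases in these windows, which includes the NF-kB match. All 4 windows of H2-K1, H2-D1 and B2m held the NF-kB consensus, which 8.46% of 32851 promoter windows held. In H2-K1 and H2-D1 this consensus matched in overlapping registers, and no other matches in the printed sequences overlapped. The interferon element made of GAAA, any 2 bases and GAAA was present in the B2m and H2-T23 windows and in 3.44% of all windows. A shorter form, GAANNGAAA, was present in both H2-K1 windows and in the H2-D1 window, as TTTCACTTC on the other strand, and in 7.52% of all windows. The GAS letters TTCNNNGAA were found in the Psmb8 window alone among the 10, and in 8.3% of all windows.

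TGACG was present in 6 and ATTGG in 8 of the 10 windows, against 20.8% and 37.4% of all windows. Of the letters searched for, the Tapbp window held only ATTGG, and the Psmb10 window held no match. Both H2-K1 windows, the H2-D1 window and the B2m window held TGACG followed by ATTGG with exactly 20 bases between them, an arrangement present in 31 of all windows (0.0944%). The spacing was chosen after these windows had been read. Those 31 windows belong to 27 genes, and H2-M3 is the only other class I gene among them that the pathway list below holds. Tap1 and Psmb9 are transcribed away from each other from start sites 225 bases apart, so their windows share 275 bases and the Tap1 sequence above largely covers the Psmb9 promoter as well. These matches describe letters in the reference, and binding was not measured.

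Nearly the whole set was higher on the LPS arrays than on the untreated arrays, which sat on a different slide, in both genotypes. In KO lines, 17 of the 20 probes were higher with LPS at an adjusted p under 0.05, against a background of 6.45% of all kept probes. In WT lines, 19 of the 20 were higher, against 9.97%. No member probe was lower at that threshold. The median log2 change of the 20 probes was 1.10 in KO and 1.38 in WT lines, while the median over all 21124 probes was -0.03 in KO and -0.05 in WT lines. All LPS arrays lay above all untreated arrays for 19 probes in KO lines, where 15.6% of all probes did so, and for 18 in WT lines, where 16.3% did. On probe 1 of each gene, the heavy chains and Psmb8 had the largest changes, Psmb9 came next, B2m, Tap1, Tapbp and Psmb10 changed less, and no change was called for Tap2. Probes of 1 gene differed in size, and the dimmest H2-K1 probe changed by 0.76 in WT lines.

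The calls come from limma fitted to all kept probes, with Benjamini-Hochberg adjustment over all of them. The KO count was 11 of 20 without KO10, 11 without KO15 and 13 without KO4. The size of the change depended on the background correction: without it the median was 0.61 in KO and 0.86 in WT lines, with 17 and 18 probes called.

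**Figure D1:**
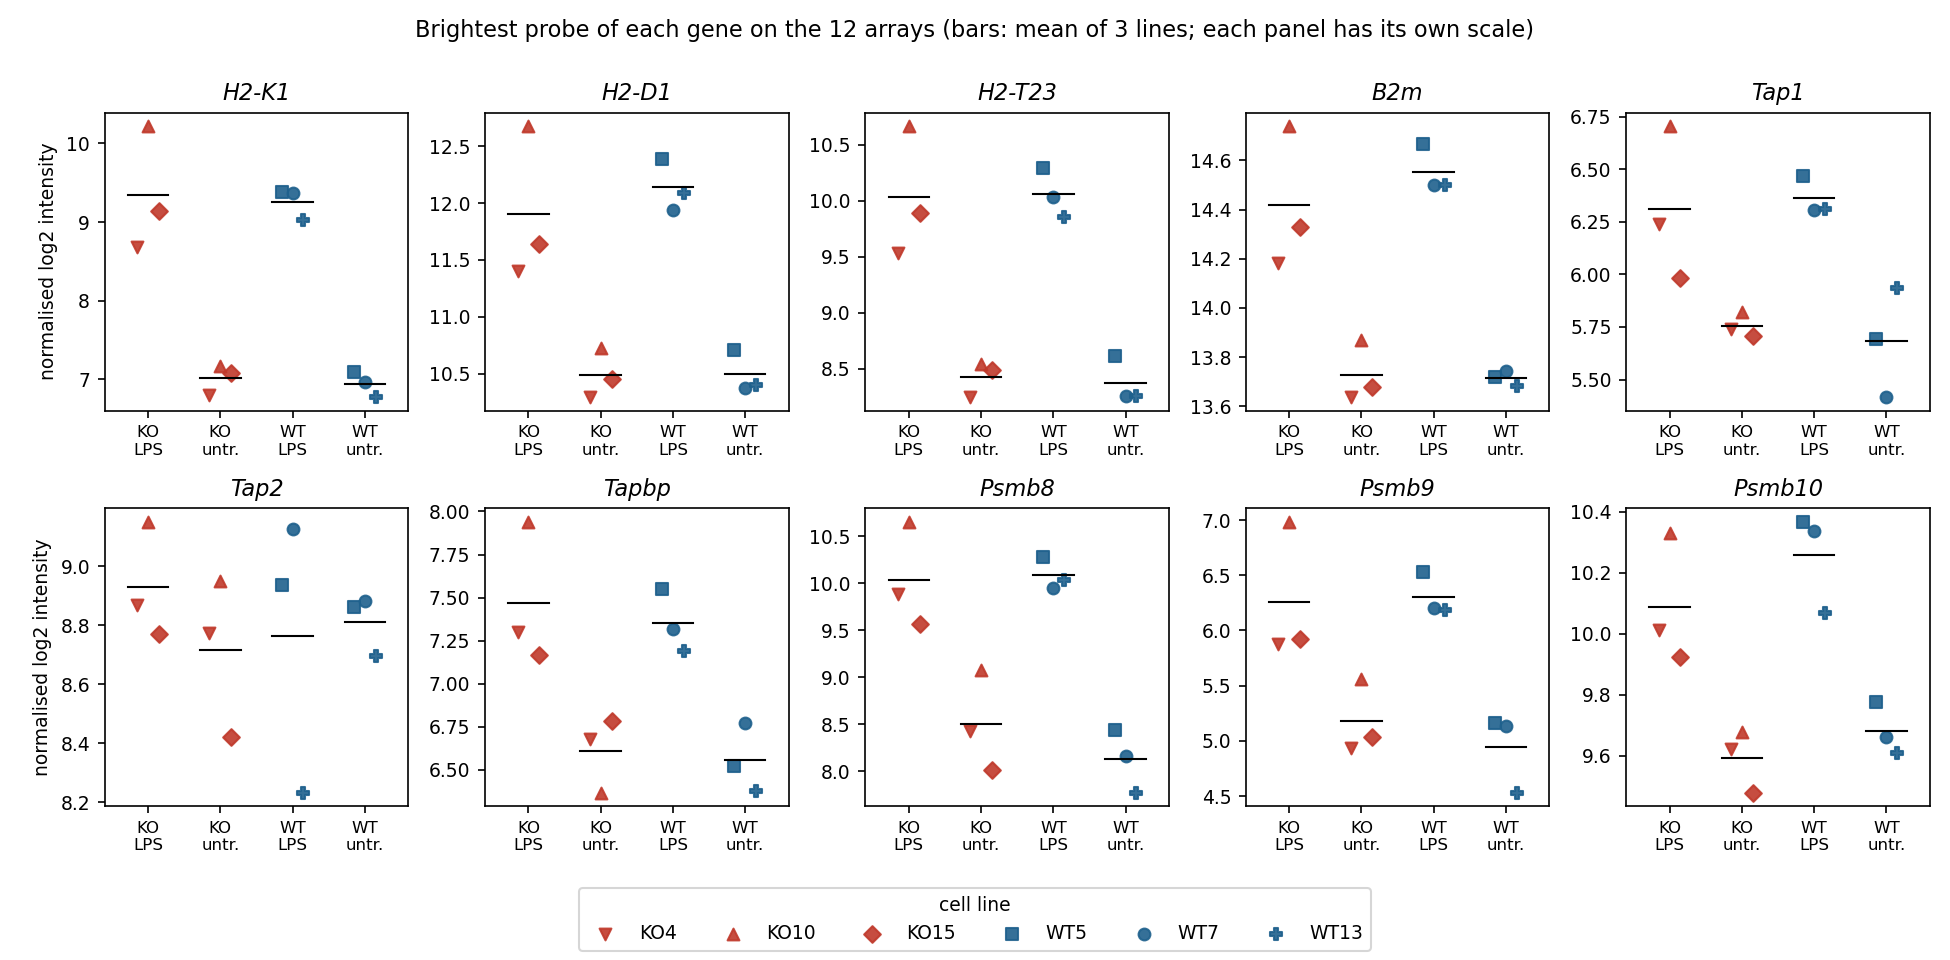
Normalised log2 intensity (vertical axis, separate scale per gene) of the brightest probe of each gene on the 12 arrays, with KO lines in red, WT lines in blue, 1 symbol per line and a bar at the mean of 3 lines. For H2-K1 all 6 LPS arrays lie above all 6 untreated arrays, KO10 with LPS is the highest point in 9 of the 10 panels, and for Tap2 the groups overlap.

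Among the heavy chains, H2-K1 had the largest change of the set. Its probe 1 read 8.68, 10.22 and 9.14 log2 units in KO4, KO10 and KO15 with LPS, against 6.79, 7.16 and 7.08 in the same lines untreated. In WT5, WT7 and WT13 it read 9.38, 9.37 and 9.03 with LPS, against 7.09, 6.97 and 6.77 untreated. Every LPS array was above every untreated array, and KO10 with LPS stood above the other LPS arrays. The log2 change was 2.33 in KO lines (SE 0.29, 5.04-fold, adjusted p = 0.000345) and 2.32 in WT lines (SE 0.29, 4.99-fold, adjusted p = 0.000237). Its 2 other probes rose by 1.38 and 1.11 in KO lines and by 1.89 and 0.76 in WT lines, and the dimmest of them was detected on 9 of the 12 arrays. That dimmest probe was called in 8 of 13 alternatives in WT lines and in 11 of 13 in KO lines. The WT misses included no background correction (adjusted p = 0.0567), the authors' processed values (0.0566), leaving out WT7 (0.0819) and leaving out WT13 (0.228). In KO lines it missed the threshold without KO10 (0.0524) and without KO15 (0.0877).

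H2-D1 encodes the other classical heavy chain measured here. Its probe 1 read 11.40, 12.68 and 11.64 in KO4, KO10 and KO15 with LPS, against 10.29, 10.72 and 10.45 untreated. In WT5, WT7 and WT13 the values were 12.39, 11.94 and 12.09 with LPS, against 10.71, 10.37 and 10.40 untreated. The LPS and untreated arrays did not overlap. The log2 change was 1.42 in KO lines (SE 0.26, adjusted p = 0.00429) and 1.65 in WT lines (SE 0.26, adjusted p = 0.00122). The 2 other kept probes of H2-D1 rose by 1.58 and 1.76 in KO lines and by 1.84 and 2.06 in WT lines, so that all 3 were called in both genotypes.

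H2-T23 encodes Qa-1, a non-classical heavy chain that presents leader peptides of other class I molecules to NK cell receptors. Its probe 1 read 9.53, 10.67 and 9.90 in KO4, KO10 and KO15 with LPS, against 8.25, 8.54 and 8.49 untreated. The WT5, WT7 and WT13 values were 10.29, 10.03 and 9.85 with LPS, against 8.61, 8.25 and 8.26 untreated. Again no LPS array fell within the untreated range. The change was 1.61 in KO lines (SE 0.23, adjusted p = 0.000978) and 1.69 in WT lines (SE 0.23, adjusted p = 0.000467). Probe 3 of H2-T23 had the smallest adjusted p of the set in both genotypes, with 1.90 (SE 0.19, adjusted p = 9.99e-05) in KO lines and 2.05 (SE 0.19, adjusted p = 3.50e-05) in WT lines. Class I genes are close paralogs, and whether a probe also binds a neighbour's transcript was not checked.

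B2m, the light chain shared by all class I molecules, gave some of the brighter signals of the arrays, with unnormalised intensities of 12307 to 26414 for probe 1. This probe read 14.18, 14.74 and 14.33 log2 units in KO4, KO10 and KO15 with LPS, against 13.64, 13.87 and 13.68 untreated. In WT5, WT7 and WT13 it read 14.67, 14.50 and 14.50 with LPS, against 13.72, 13.74 and 13.68 untreated. The ranges did not overlap, with all untreated arrays under 14. The change was 0.69 in KO lines (SE 0.13, 1.61-fold, adjusted p = 0.00557) and 0.84 in WT lines (SE 0.13, 1.79-fold, adjusted p = 0.00121). Probe 2 rose by 0.56 in KO and 0.89 in WT lines. Without KO10 its KO change was 0.47 (adjusted p = 0.119), and without KO15 it was 0.61 (adjusted p = 0.0858).

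**Figure D2:**
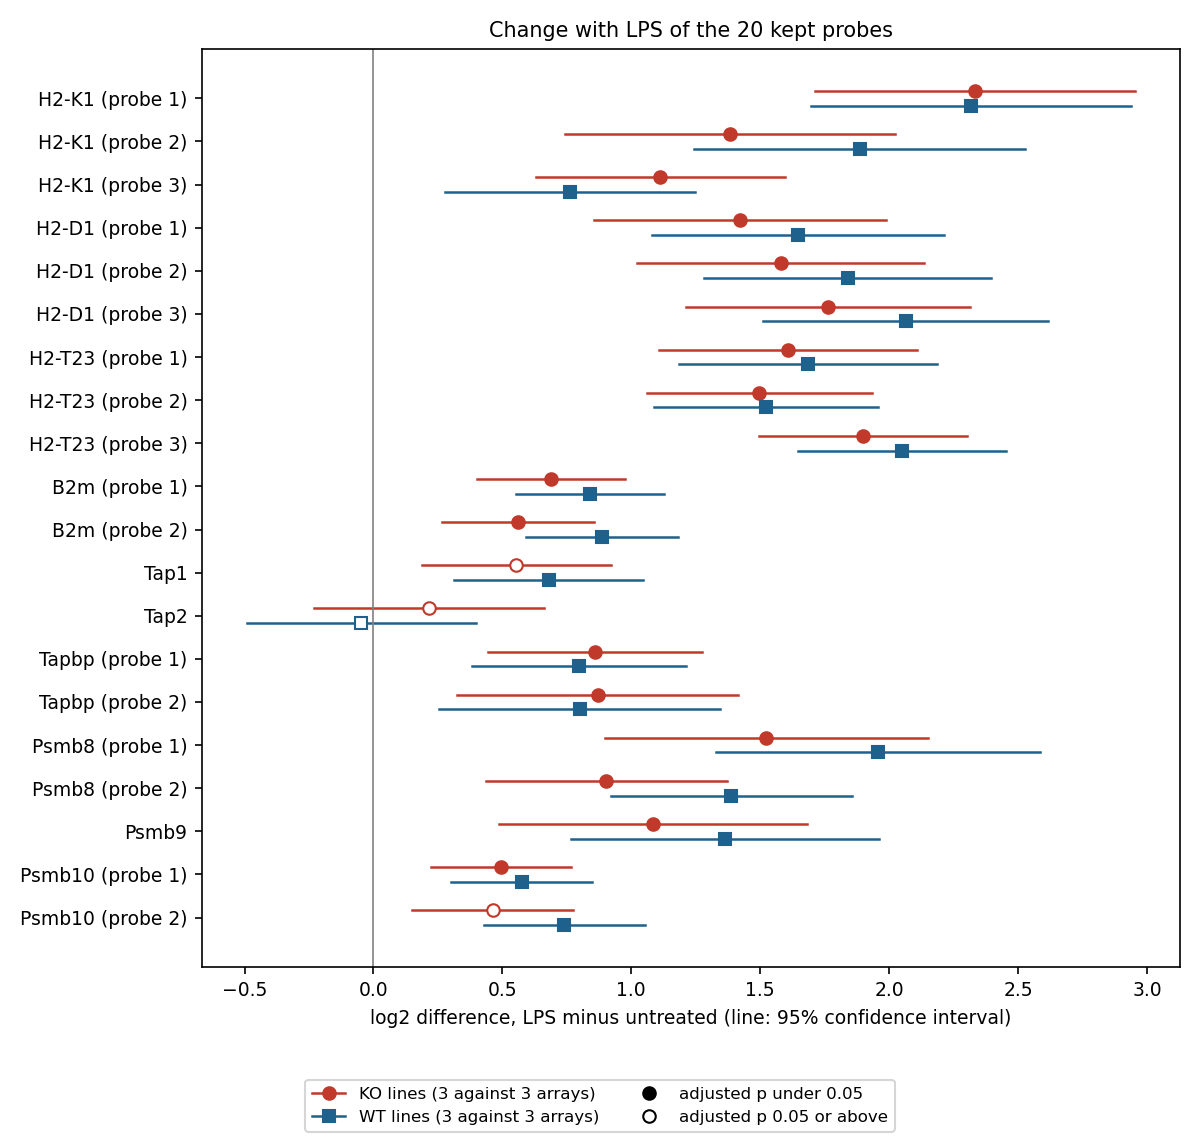
Log2 difference between LPS and untreated arrays (horizontal axis, with 95% confidence intervals) for the 20 kept probes, KO lines in red above WT lines in blue, 3 arrays per group. Filled symbols passed the adjusted p of 0.05. The changes run up to 2.33 in KO and 2.32 in WT lines for H2-K1 probe 1, and the Tap2 intervals include 0.

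The peptide transporter subunits differed. Tap1 had 1 probe, which read 6.24, 6.70 and 5.98 in KO4, KO10 and KO15 with LPS, against 5.74, 5.82 and 5.71 untreated. It read 6.47, 6.31 and 6.31 in WT5, WT7 and WT13 with LPS, against 5.69, 5.42 and 5.94 untreated. The groups did not overlap within either genotype, and the WT change of 0.68 (SE 0.17, adjusted p = 0.0143) was called. The KO value of 0.55 (SE 0.17) had an adjusted p of 0.0503, and of 0.0279 with the cell line as a random replicate block. Without WT5 or WT7 the WT change missed the threshold (0.63, adjusted p = 0.0924, and 0.58, adjusted p = 0.0744).

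Tap2, the partner of Tap1 in the transporter, was the exception of the set. Its probe read 8.87, 9.15 and 8.77 in KO4, KO10 and KO15 with LPS, against 8.77, 8.95 and 8.42 untreated. It read 8.94, 9.12 and 8.23 in WT5, WT7 and WT13 with LPS, against 8.86, 8.88 and 8.69 untreated. LPS and untreated arrays overlapped in both genotypes. The log2 difference was 0.21 in KO lines (95% confidence interval -0.23 to 0.66, adjusted p = 0.553) and -0.05 in WT lines (-0.49 to 0.40, adjusted p = 0.894). WT13 was the 1 line of 6 with a lower Tap2 value with LPS, by -0.46, and without it the WT difference was 0.16 (adjusted p = 0.625). Only 1 Tap2 probe was measured, so the gene rests on that probe alone.

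Tapbp, tapasin, which links the transporter to the heavy chain, read 7.30, 7.94 and 7.17 on probe 1 in KO4, KO10 and KO15 with LPS, against 6.68, 6.37 and 6.78 untreated. It read 7.55, 7.32 and 7.19 in WT5, WT7 and WT13 with LPS, against 6.52, 6.77 and 6.38 untreated. The change was 0.86 in KO lines (SE 0.19, adjusted p = 0.0120) and 0.80 in WT lines (SE 0.19, adjusted p = 0.0122). KO10 was the lowest untreated and the highest LPS array for this probe, a line change of 1.57 against 0.62 in KO4 and 0.38 in KO15. Without KO10 the KO change was 0.50 (adjusted p = 0.136), and the WT change missed the threshold without WT5 (adjusted p = 0.0980) or WT13 (adjusted p = 0.0688). Probe 2 rose by 0.87 in KO lines (adjusted p = 0.0403) and 0.80 in WT lines (adjusted p = 0.0400), and it lost the call in each genotype in about as many alternatives as kept it (called in 7 of 14 in KO and in 8 of 14 in WT lines).

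The immunoproteasome subunits rose with LPS, Psmb8 most. Psmb8, which replaces Psmb5, read 9.88, 10.65 and 9.57 on probe 1 in KO4, KO10 and KO15 with LPS, against 8.43, 9.08 and 8.02 untreated. In WT5, WT7 and WT13 it read 10.27, 9.95 and 10.04 with LPS, against 8.45, 8.17 and 7.77 untreated. There was no overlap, and the order of the KO lines was the same in both conditions. The change was 1.52 in KO lines (SE 0.29, 2.88-fold, adjusted p = 0.00512) and 1.96 in WT lines (SE 0.29, 3.88-fold, adjusted p = 0.000788). Probe 2 rose by 0.90 in KO lines (adjusted p = 0.0171) and 1.39 in WT lines (adjusted p = 0.00107). The KO call of probe 2 was lost without KO10 (adjusted p = 0.110), KO15 (adjusted p = 0.0966) or KO4 (adjusted p = 0.0579).

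Psmb9, which replaces Psmb6, had 1 probe, detected on 11 of the 12 arrays. It read 5.88, 6.98 and 5.92 in KO4, KO10 and KO15 with LPS, against 4.94, 5.56 and 5.04 untreated. The probe read 6.53, 6.20 and 6.19 in WT5, WT7 and WT13 with LPS, against 5.16, 5.13 and 4.53 untreated. LPS arrays stood above untreated arrays in both genotypes. The change was 1.08 in KO lines (SE 0.28, adjusted p = 0.0230) and 1.36 in WT lines (SE 0.28, adjusted p = 0.00509). The KO call was kept in 10 of 14 alternatives. Its losses included the fit of only the compared arrays (adjusted p = 0.0553) and leaving out KO4 (0.0625) or KO15 (0.0781). The WT call was lost without WT13 (adjusted p = 0.0523).

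Psmb10, which replaces Psmb7, moved least of the 3. Its probe 1 read 10.01, 10.33 and 9.92 in KO4, KO10 and KO15 with LPS, against 9.62, 9.68 and 9.48 untreated. The same probe read 10.37, 10.34 and 10.07 in WT5, WT7 and WT13 with LPS, against 9.78, 9.66 and 9.61 untreated. The groups did not overlap, and the change was 0.49 in KO lines (SE 0.13, 1.41-fold, adjusted p = 0.0231) and 0.58 in WT lines (SE 0.13, 1.49-fold, adjusted p = 0.00766). Probe 2 gave 0.46 in KO lines (adjusted p = 0.0537, and 0.0281 with the line as a random replicate block) and rose by 0.74 in WT lines (adjusted p = 0.00402). Probe 1 missed the threshold in KO lines without KO4 (adjusted p = 0.0796), KO10 (0.153) or KO15 (0.0815), and in WT lines without WT7 (0.0523).

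No member probe differed between the genotypes at the threshold. With LPS, 0 of the 20 probes were called in KO against WT lines, where 0.227% of all kept probes were, and the smallest adjusted p was 0.663. The differences ran from -0.29 to 0.16 with a median of -0.05, 7 of the 20 were above 0, and 0 had an unadjusted p under 0.05. Without KO10 that median was -0.29. Among untreated lines 0 of the 20 were called, against 0.133% of all kept probes, with differences from -0.27 to 0.65, a median of 0.07 and 15 above 0. The 95% confidence intervals of the 20 probes reached from -0.93 to 0.71 with LPS and from -0.75 to 1.11 untreated. These are the outermost ends over all probes, and the intervals of single probes were narrower, such as -0.27 to 0.30 for B2m probe 1 untreated. With 3 lines per genotype, differences within a probe's own interval remained possible.

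Psmb8 probe 2 gave the largest untreated difference. It read 5.69, 5.94 and 5.69 in untreated KO4, KO10 and KO15, against 5.30, 4.93 and 5.15 in untreated WT5, WT7 and WT13, so the genotypes did not overlap. The difference was 0.65 (SE 0.22, 95% confidence interval 0.18 to 1.11, adjusted p = 0.351) and it was the only member probe with an unadjusted p under 0.05. With LPS the same probe differed by 0.16 (adjusted p = 0.840), and Psmb8 probe 1 differed by 0.38 untreated (adjusted p = 0.796) with overlapping groups. On the means of both arrays of each line, 0 of the 20 probes were called, against 0.0521% of all kept probes, the median difference was 0.01 and that of Psmb8 probe 2 was 0.40 (adjusted p = 0.426).

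**Figure D3:**
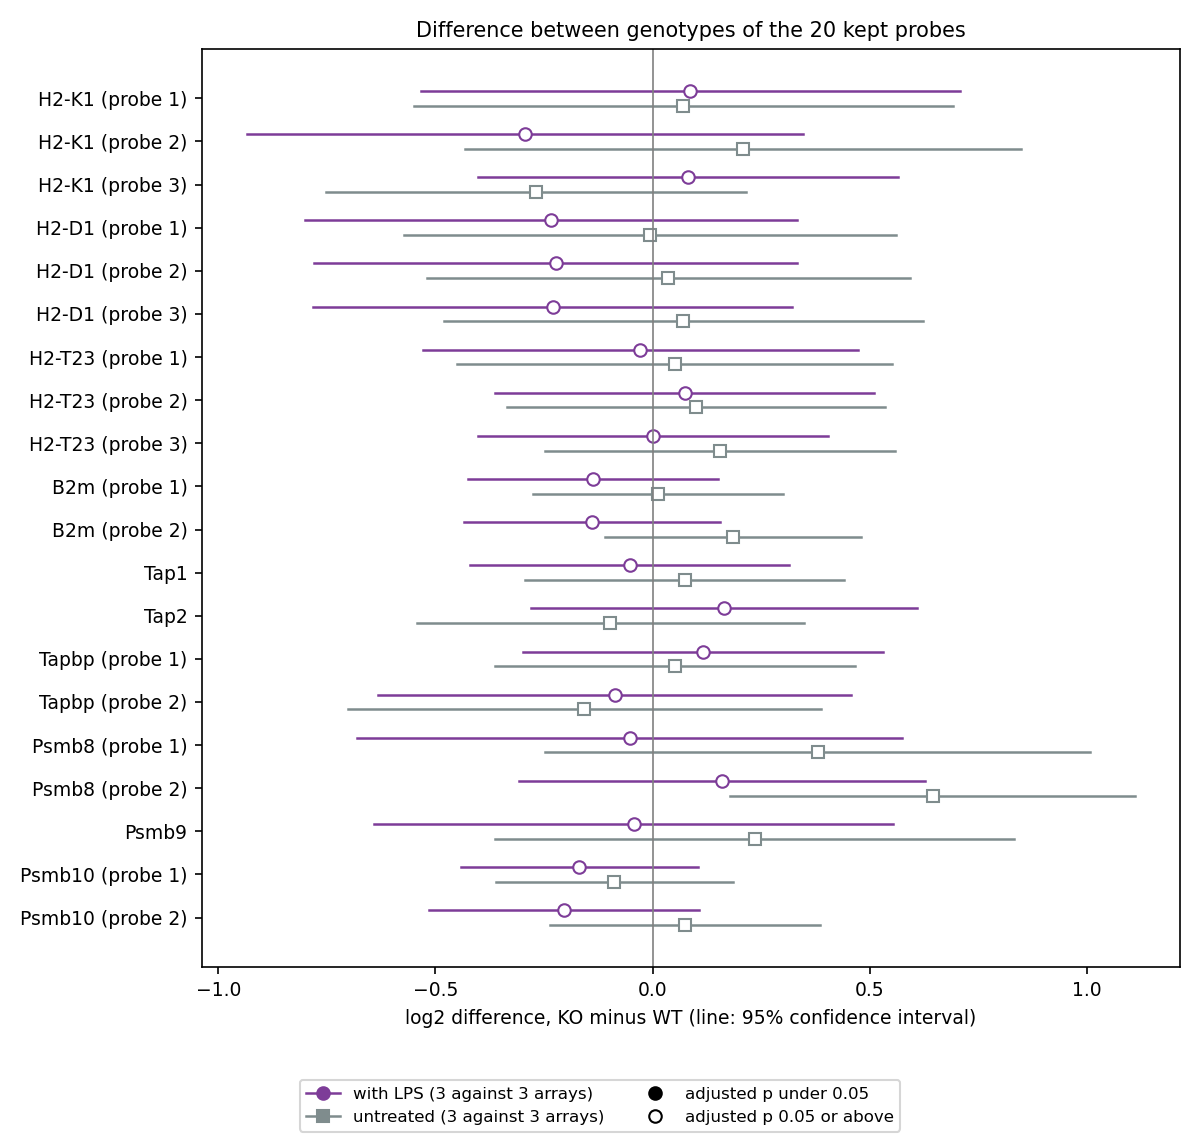
Log2 difference between KO and WT lines (horizontal axis, with 95% confidence intervals) for the 20 kept probes, LPS arrays in purple above untreated arrays in grey, 3 arrays per group. All symbols are open because none passed the adjusted p of 0.05, and the intervals include 0 except that of Psmb8 probe 2 untreated (0.18 to 1.11).

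The change with LPS itself was compared between genotypes by the interaction term. Of the 20 probes 0 were called, and the background was 0% (0 of 21124 probes, with 844 at an unadjusted p under 0.05). KO minus WT differences in the LPS change ran from -0.50 to 0.35 with a median of -0.15 and 5 above 0, and the smallest adjusted p was 0.966. H2-K1 probe 1 differed by 0.02 (95% confidence interval -0.86 to 0.89) and Psmb8 probe 1 by -0.43 (-1.32 to 0.45). In the order of the 4 group means, both LPS groups stood above both untreated groups for 19 of the 20 probes, with Tap2 the exception, while no difference between KO and WT groups of the same condition passed the test. The untreated KO and WT arrays did not overlap for Psmb8 probe 2 and B2m probe 2, and they overlapped for the other 18 probes. For B2m probe 2 the gap was small, with 13.58 in KO4 against 13.57 in WT5. The share of all kept probes without such overlap was not counted, so no result is read from these 2 probes.

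With LPS the members ranked the lines in much the same way, while untreated the ranks were more spread. On the LPS arrays KO10 was the highest of the 6 lines for 16 of the 20 probes and WT5 for the other 4. KO4 was the lowest for 13, KO15 for 4 and WT13 for 3. Among the KO lines KO10 was the highest for all 20 probes with LPS and for 16 untreated. Averaged over the brightest probes of the 10 genes, the log2 level with LPS was 9.20 in KO4, 10.01 in KO10 and 9.23 in KO15, against 9.69 in WT5, 9.51 in WT7 and 9.35 in WT13. Untreated it was 8.32, 8.57 and 8.31 in the same KO lines, against 8.46, 8.34 and 8.20 in the WT lines. The change with LPS was 0.88 in KO4, 1.43 in KO10 and 0.92 in KO15, against 1.23 in WT5, 1.17 in WT7 and 1.15 in WT13.

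**Figure D4:**
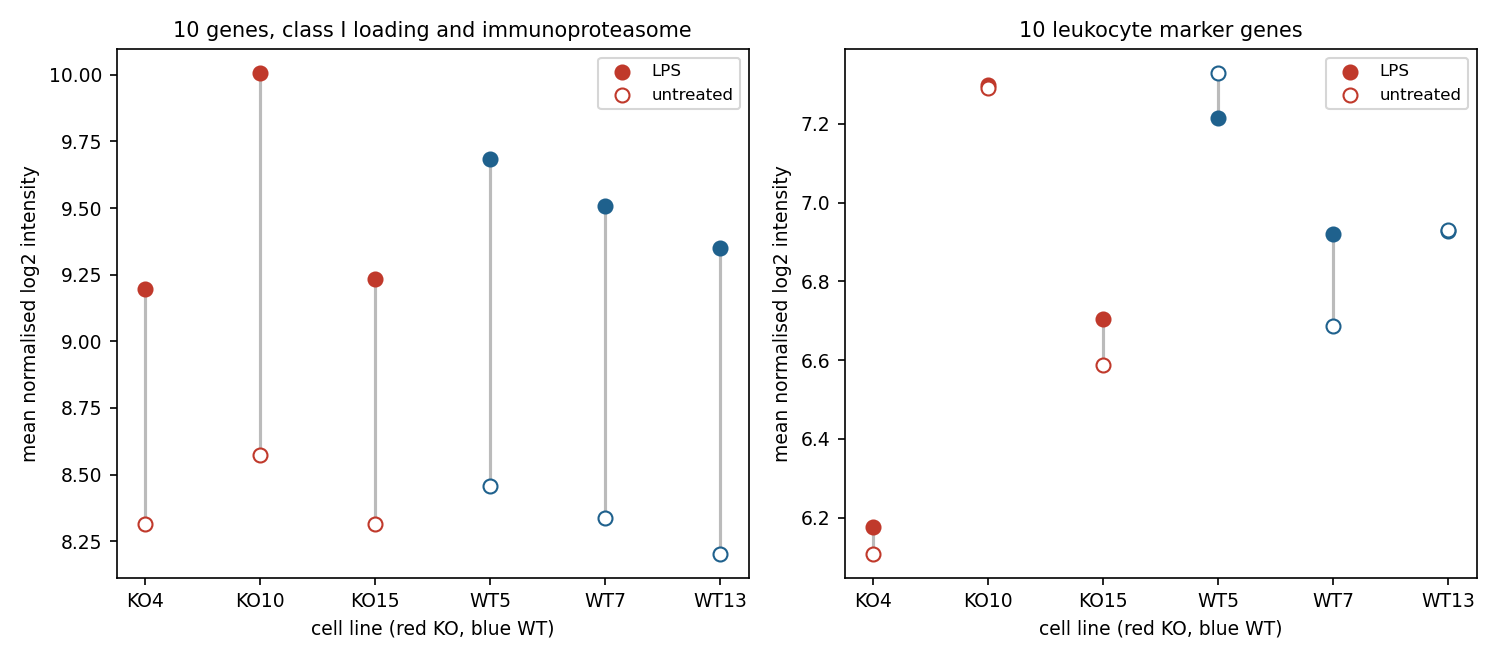
Mean normalised log2 intensity (vertical axes) in each line with LPS (filled) and untreated (open), for the 10 class I loading and immunoproteasome genes on the left and 10 kept leukocyte markers on the right, brightest probe per gene. The members with LPS reach 10.01 in KO10 and 9.20 in KO4, and the leukocyte means with LPS are 7.30 and 6.18 in those lines, and in WT13 the leukocyte points coincide.

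Leukocyte markers had the same extremes with LPS. The 10 kept markers averaged 6.18 in KO4, 7.30 in KO10 and 6.70 in KO15 with LPS, against 7.21 in WT5, 6.92 in WT7 and 6.93 in WT13. Their summed linear signal with LPS was 1056 in KO4, 3468 in KO10 and 1823 in KO15, against 3178, 2241 and 2352 in WT5, WT7 and WT13. With LPS, KO10 was thus the highest and KO4 the lowest line for leukocyte markers and for most class I probes alike. Untreated, KO10 was the highest line for 10 of the 20 class I probes, WT5 for 5, KO15 for 3 and WT13 for 2. WT13 was the lowest line most often, for 7 probes, against 5 for KO4. The untreated leukocyte mean was 6.11 in KO4, 7.29 in KO10 and 6.59 in KO15, against 7.33 in WT5, 6.69 in WT7 and 6.93 in WT13. The line most often lowest for class I probes was thus not the line with the lowest untreated leukocyte mean. The part of these cells in the differences between lines was not tested. In bulk RNA, fewer cells of a type and less RNA per cell cannot be told apart.

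Between conditions the leukocyte sum and the leukocyte log2 mean did not move alike. The sum, which the brightest markers dominate, was 1056 to 3468 with LPS and 1217 to 4301 untreated in KO lines, and 2241 to 3178 with LPS and 2420 to 3898 untreated in WT lines, and it was lower with LPS in each of the 6 lines. The log2 mean was higher with LPS in 4 of the 6 lines, at 6.92 against 6.69 untreated in WT7, and lower in WT5 and WT13. Of the 10 markers, Adgre1, a macrophage surface receptor, and Cd14, an LPS co-receptor, were higher with LPS (1.96 and 1.43 in KO, 2.12 and 1.62 in WT lines). Cd3e, a T cell receptor subunit, was lower (-0.93 in KO and -1.26 in WT lines). Epithelial markers, 5 of 10 kept, had 0 calls with LPS and summed to 276 to 502 with LPS and 429 to 682 untreated over both genotypes.

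Other genes of the pathway came from a list of 72, of which 45 had a kept probe, each represented by its brightest one. With LPS, 14 of the 45 were higher and 2 lower in KO lines, and 18 were higher and 1 lower in WT lines. Of all 21124 kept probes, 6.45% were higher in KO and 9.97% in WT lines. Lower were 1272 of them in KO and 2269 in WT lines. The median change over the 45 was 0.29 in KO and 0.32 in WT lines, below the member medians, and 0 of the 45 were called between genotypes in either condition or in the interaction. Of the 9 other class I heavy chains with a kept probe, 7 were higher in KO and 8 in WT lines. Their median change was 1.58 in KO and 1.22 in WT lines. Only 4 of the 9 were detected on all 12 arrays. H2-M2 was detected on LPS arrays only, and H2-Q6 on just 1 untreated array, of a WT line. Genes that pass the filter mainly through their LPS arrays lean towards a rise, so this count and median are description only. H2-Q7, a gene of the non-classical Qa-2 antigen, rose by 2.16 in KO lines (adjusted p = 0.000590) and 2.08 in WT lines (adjusted p = 0.000490).

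H2-M2, another non-classical heavy chain gene, was not well above background on any untreated array, so that it was at least 4.53-fold higher with LPS in KO and at least 7.44-fold higher in WT lines. H2-Q8 was at least 3.91-fold higher in WT lines by the same bound, which sets the mean with LPS against the higher of the probe's own untreated signal and the lowest detected signal of each array. H2-Q6 was at least 2.49-fold higher with LPS in KO lines. H2-Q5 rose by 1.62 in KO and 1.80 in WT lines. H2-Q1 was the 1 of the 9 called in neither genotype, at -0.05 in KO and 0.32 in WT lines.

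Steps around the members moved less. Among the standard catalytic subunits that the immunoproteasome subunits replace, Psmb5 gave 0.21 in KO (adjusted p = 0.355) and 0.37 in WT lines (adjusted p = 0.0730), and Psmb7 gave 0.08 and 0.19 without a call. Psmb6 rose by 0.28 in WT lines (adjusted p = 0.0406) and gave 0.17 in KO lines (adjusted p = 0.253). The proteasome activator subunit Psme1 rose by 0.36 in KO and 0.52 in WT lines, while its partner Psme2 gave 0.08 and 0.29 without a call. Of the folding and trimming genes with a kept probe, the chaperone Calr, the oxidoreductase Pdia3 and the tapasin relative Tapbpl, 0 of 3 were called in either genotype.

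Regulators were divided. Nlrc5, the transactivator of class I genes, rose by 1.25 in KO lines (adjusted p = 0.0213) and was at least 2.18-fold higher with LPS in WT lines, where no untreated array detected it. Irf7, which amplifies type I interferon production, rose by 2.43 in KO (adjusted p = 0.000376) and 3.24 in WT lines (adjusted p = 4.30e-05). Stat2 and Irf9, which act in interferon receptor signalling, rose by 1.57 and 1.07 in KO lines and by 2.23 and 1.63 in WT lines. Relb, an NF-kB subunit, rose by 0.91 in KO and 0.93 in WT lines. Irf1, a further activator of class I promoters, gave 0.17 in KO (adjusted p = 0.466) and 0.32 in WT lines (adjusted p = 0.108), and Irf3 fell by 0.38 in KO and by 0.57 in WT lines. The cytokine Tnf, which passed the detection filter through its LPS arrays alone, was at least 1.59-fold higher with LPS in KO and at least 2.20-fold higher in WT lines. No probe of Ifnb1, an interferon gene, was kept.

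**Figure D5:**
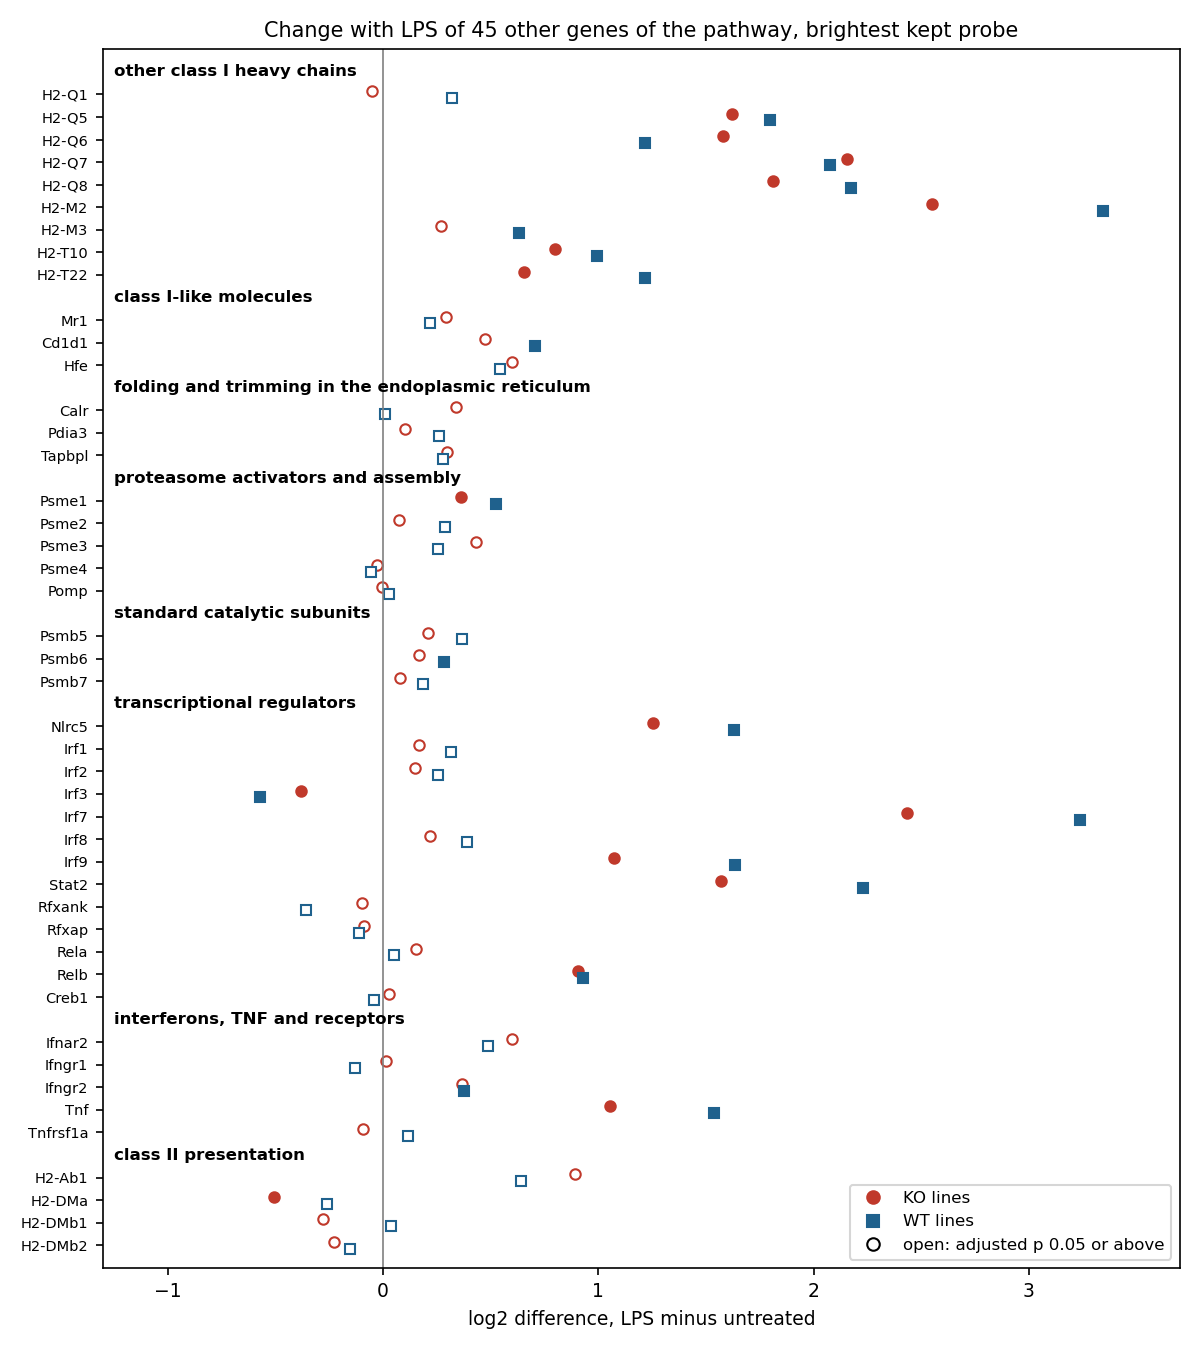
Log2 difference between LPS and untreated arrays (horizontal axis) for 45 other genes of the pathway by role, KO lines as red circles and WT lines as blue squares, filled where the adjusted p was under 0.05. Filled symbols lie mainly among other class I heavy chains and transcriptional regulators, with Irf7 at 2.43 in KO and 3.24 in WT lines, and 2 of the 3 standard catalytic subunits have no filled symbol.

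Across the 12 arrays the members moved together, with Tap2 the least like the others. The correlation of each gene's probe 1 with the mean of the other 9 was between 0.900 and 0.977 for 9 genes and 0.319 for Tap2. These values share the LPS change. After removal of the group means, so that differences between lines within a group are left, they were 0.881 to 0.921 for H2-K1, H2-D1, H2-T23, B2m, Psmb9 and Psmb10, 0.784 for Psmb8, 0.625 for Tapbp, 0.608 for Tap1 and 0.543 for Tap2. The median over the 45 pairs of members was then 0.650 (0.274 to 0.961). The points come from the same 12 arrays, and both arrays of a line share its cells.

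Among 11050 other genes, the 5 whose pattern over the 12 arrays was most like the member mean were Gm8909 (r = 0.988), Cxcl10 (0.986), H2-Q7 (0.986), H2-T10 (0.976) and Oasl1 (0.975). Cxcl10, an interferon-inducible chemokine, read 8.86, 11.59 and 9.36 in KO4, KO10 and KO15 with LPS, against 6.17, 6.92 and 6.52 untreated. In WT5, WT7 and WT13 it read 10.92, 9.76 and 9.55 with LPS, against 7.13, 6.28 and 5.53 untreated. It therefore had KO10 and WT5 as its highest lines with LPS, as the member mean did, though not every member probe. After removal of the group means the 5 nearest were Hinfp (0.964), H2-Q7 (0.961), Gm8909 (0.961), Tcte2 (0.960) and Ifi213 (0.957). H2-Q7 and Gm8909 stood in both lists.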

How the data were processed

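Total RNA of 12 cultures (6 ISEMF lines, each with LPS and untreated) was hybridised to Illumina mouse bead arrays. Per the file headers, the first deposited table holds unnormalised intensity, the mean over a probe's beads, and each detection p-value deposited by the authors compares a probe with negative controls. The submitters' processing notes name BeadStudio without a version. A second deposited table of processed intensity values, quantile normalised judging by its values, served as an alternative. The number of unused columns was 0.

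Signals were normalised with neqc (offset 16, log2) in limma 3.58.1 under R 4.3.3. The 21124 probes detected (p under 0.05) on 3 or more of the 12 arrays were fitted together as 4 group means without a line term, and 5 contrasts were tested. A further fit used the 6 line means. Adjusted p-values are Benjamini-Hochberg over all kept probes. The steps were tested on simulated data. The number of arrays limits precision. The labels give both arrays of a line the same line number, so the numbers pair them. Their deviations from the group means correlated at 0.0861 to 0.453, above any other line. In WT lines the values were weak, at 0.0861 to 0.167, and WT7 had 0.0861 against 0.0724 for the nearest other line. Members and gene lists were chosen with earlier results of these data known. All member probes are described. Pathway genes were named as the up to 10 called genes of largest change per comparison, plus Nlrc5, Irf1, Ifnb1, Psme1, Psme2 and Psmb5 to Psmb7. Relb, Irf3, H2-Q1, the folding and class II genes, Cd1d1 and cell type markers were named after their values were seen. Alternatives changed the background correction, scaling, filter, probe choice, arrays fitted, replicate block and lines included.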

Additional observations from a re-analysis of the deposited data

How the results depend on the processing

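Of 576 single-probe values for the change with LPS under the alternatives, 525 kept their direction and their side of the threshold, 39 kept the direction and lost the call, 11 kept the direction and gained it, and 1 reversed. The reversal was Tap2 in WT lines, which ranged from -0.19 to 0.16 with 1 line left out, against -0.05 with all lines. Leaving out 1 line moved the member probes called with LPS to 11 to 19 in KO lines. With the cell line as a replicate block, random or fixed, the paired fit called 19 member probes in KO and 19 in WT lines, gaining Tap1 and Psmb10 probe 2 in KO lines and changing no other call, and the random block called 1 probe of all in the difference between genotypes. With 1 probe per gene symbol, 9 of 10 members were called in KO and 9 in WT lines, and 1622 genes in KO and 2526 in WT lines, since fewer features were tested. Without background correction the median member change was 0.61 in KO and 0.86 in WT lines, and on the authors' processed values it was 0.61 and 0.86. Those processed values rank the probes of an array as the unnormalised intensities do (rank correlation 1). The authors' setting is thus nearly the same as no background correction and no separate support.

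Over all probes, genotype counts moved most. With only the compared arrays fitted, which left fewer samples, 4 were called with LPS and 1 untreated. Scaling to the 75th percentile gave 28 with LPS. Without a detection filter there were 17 with LPS, 7 untreated and 3 on line means, and with detection on all 12 arrays 31 on line means. On line means, no background correction and the authors' values each gave 4. With 1 line left out, counts ran from 6 to 36 in KO against WT with LPS, 3 to 48 untreated, 3 to 64 on line means, 0 to 1 in the interaction, 777 to 3432 for LPS in KO and 1746 to 4082 for LPS in WT lines. Psmb8 probe 1 on line means ranged from -0.13 to 0.40, reversing without KO10, against 0.16 with all lines. The cause of these shifts was not tested. No member probe was called between genotypes under any alternative run. Dim probes such as Psmb9 and H2-K1 probe 3 lie near the background, which limits their fold changes.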

Other observations

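MHC class II presentation, which shows peptides taken up from outside to CD4 T cells, was covered by few detected probes. Of 10 listed class II genes 4 had a kept probe, and 0 of these 4 were higher with LPS at the threshold in either genotype. Of all kept probes 6.45% were higher in KO and 9.97% in WT lines, so a count of 0 among 4 genes says little. H2-DMa, which helps to load class II molecules, fell by 0.51 in KO lines (adjusted p = 0.0103) and gave -0.26 in WT lines (adjusted p = 0.107). The class II chain H2-Ab1 gave 0.89 in KO lines (adjusted p = 0.0614) and 0.64 in WT lines (adjusted p = 0.131). The median over the 4 genes was -0.25 in KO and -0.06 in WT lines.

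Of the class I-like genes, Cd1d1, which presents lipids to NKT cells, rose by 0.71 in WT lines (adjusted p = 0.0133) and gave 0.47 in KO lines (adjusted p = 0.0970).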
